A study of Mus musculus with 8 samples.

Results

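The semaphorin, plexin and neuropilin genes examined here were the 5 semaphorin ligand genes Sema3a, Sema3c, Sema3d, Sema5a and Sema6d, the 3 plexin receptor genes Plxna2, Plxna4 and Plxnd1, and the neuropilin co-receptor genes Nrp1 and Nrp2. They were taken by symbol from a table of 20701 gene symbols, each represented by its transcript of highest mean count. All 10 were found, and all 10 passed the filter on low counts. The outflow tract (OFT) was dissected together with the right ventricle (RV) at E10.5, and polyadenylated RNA of 1 embryo went into each library, with 4 control embryos (CTRL) and 4 Isl1 hypomorphs (Isl1_hypo). Both groups were of the C57BL/6 strain, and the controls were labelled wild type. The hypomorphs carried the Isl1-f;neo allele on both chromosomes, which reduces Isl1 without removing it and is not confined to 1 cell type. The question put to these genes was whether guidance signals known from outflow septation differed between the genotypes.

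Semaphorins are secreted or membrane-bound proteins that steer migrating cells and growing axons, mostly by repelling them. Secreted class 3 semaphorins bind a neuropilin on the target cell, and the neuropilin pairs with a plexin that carries the signal inward through small GTPases and the actin cytoskeleton. In the developing heart, Sema3c made by outflow tract tissue attracts cardiac neural crest cells that carry Plxna2 and other receptors, and Plxnd1 acts in endothelial cells. Mice that lack Sema3c or Plxnd1 form a common arterial trunk.

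Isl1, which encodes the LIM-homeodomain factor reduced in this line, was at 29.6, 61.5, 46.2 and 51.3 CPM (read counts over the library total in megareads, scaled by the TMM method) in CTRL replicates 1 to 4. It was at 12.7, 6.86, 7.71 and 11.4 CPM in Isl1_hypo replicates 1 to 4. The level in Isl1_hypo was lower by −2.29 on the log2 scale (SE 0.26, adjusted p = 0.0077, edgeR quasi-likelihood test), and the groups did not overlap. Libraries held 18422245 to 46678973 counts, and Isl1_hypo replicate 3 stood apart, with the fewest genes detected (14305) and a weight of 0.229 in a fit that weights libraries by quality. Globin genes, a measure of blood in the dissected tissue, took 0.212% to 1.19% of the counts in CTRL and 1.18% to 2.44% in Isl1_hypo.

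None of the 10 genes passed an adjusted p under 0.05. Over all genes 37 of 13769 did, which is 0.269%. Before adjustment 7 of the 10 had a p under 0.05, against 11.9% of all genes tested. Of these 7, the mean was lower in Isl1_hypo for Sema3c, Sema5a, Plxna2, Plxnd1 and Nrp2, where the share of all genes was 6.17%, and higher for Sema3a and Sema3d, where it was 5.69%. The remaining genes, Sema6d, Plxna4 and Nrp1, had log2 fold changes between −0.07 and 0.01. The CPM of the groups did not overlap for 2 genes, Sema3a and Nrp2, against 8.5% of all genes tested (4.06% higher, as Sema3a was, and 4.44% lower, as Nrp2 was). The median log2 fold change of the 10 was −0.25, and that of all genes tested was 0.0057. Because the 10 genes were chosen with earlier results of these data known, these shares and medians describe them and are no test. The median of the 10 was −0.16 without Isl1_hypo replicate 3 and also with GC trends removed, −0.15 with limma-voom and −0.13 with length trends removed. With the mean log2 level of the globin genes as a covariate, no gene of the table passed the threshold, 0 of the 10 were lower and 1 (Sema3a) was higher at an unadjusted p under 0.05, and the median of the 10 was −0.09. Some values stayed about as large in that fit while the SE grew, such as −2.30 (SE 0.36) for Isl1 and −0.36 (SE 0.23) for Sema3c. Globin shares hardly overlapped between CTRL and Isl1_hypo, so that fit cannot tell globin level and genotype apart.

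Lists of cell type markers were set beside these genes. Of 12 mesenchyme markers, all tested, 10 had a lower mean in Isl1_hypo and 4 an unadjusted p under 0.05 (3 lower and 1 higher, where 6.17% and 5.69% of all genes tested were), with a median of −0.37 and summed levels of 1931 to 2842 CPM in CTRL and 1176 to 3261 CPM in Isl1_hypo. Of 7 neuron markers tested out of 11, 5 had a lower mean and 1 an unadjusted p under 0.05 (11.9% of all genes tested), with a median of −0.45 and summed levels of 72.2 to 99.3 CPM in CTRL and 49.1 to 71.9 CPM in Isl1_hypo, and Neurog1 was at 0 in every library. None of either list passed the threshold, and their part in the differences of the 10 genes was not tested.

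**Figure D1:**
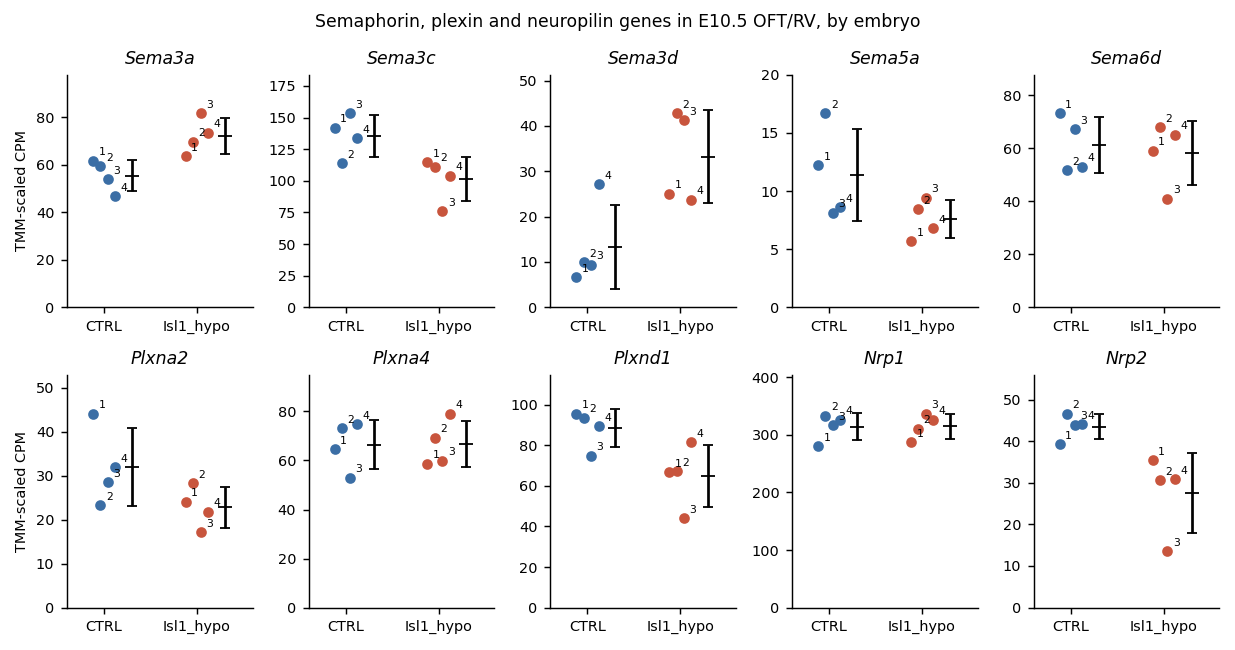
TMM-scaled CPM of the 10 genes in each of the 8 embryos, with CTRL in blue, Isl1_hypo in red and the replicate number beside each point; the bar beside each group is the mean with 1 SD, and each panel has its own axis from 0. Sema3a and Nrp2 are the genes whose groups do not overlap, CTRL replicate 4 lies among the Isl1_hypo embryos for Sema3d, and Isl1_hypo replicate 3 is the lowest of all 8 for Sema3c, Sema6d, Plxna2, Plxnd1 and Nrp2.

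The secreted ligands Sema3d, Sema3a and Sema3c lie in that order, all on the plus strand, within 4.85 Mb of chromosome 5 (mm9, 12383166 to 17236086), with Sema3e between Sema3a and Sema3c. Promoter windows of these 3 genes are shown because these neighbours differed in direction, and those of Nrp2 and Plxna2 because Nrp2 had the largest difference among the receptors and Plxna2 alone held overlapping forms of the motifs that were searched. Each window runs from 250 bases before to 50 bases after a RefSeq transcription start. The Sema3a and Sema3c windows lie inside the annotated genes, which begin at 13125593 and 17080099, so the promoters used in this tissue may be others. The windows come from a RefSeq promoter table made on a later mouse build, and each was found at exactly 1 place in mm9, whose coordinates are given. Capitals mark the letters TAATG, the core of LIM-homeodomain sites, and GATAA, the core of GATA factor sites, on either strand (CATTA and TTATC on the other).
Sema3d (chr5:12382916-12383215, plus strand): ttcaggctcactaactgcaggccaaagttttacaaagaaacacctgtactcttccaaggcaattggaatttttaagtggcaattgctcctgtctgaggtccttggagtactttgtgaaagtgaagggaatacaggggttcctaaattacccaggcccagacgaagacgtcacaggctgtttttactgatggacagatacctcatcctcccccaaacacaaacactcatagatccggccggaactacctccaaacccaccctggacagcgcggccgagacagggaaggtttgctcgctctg
Sema3a (chr5:13396534-13396833, plus strand): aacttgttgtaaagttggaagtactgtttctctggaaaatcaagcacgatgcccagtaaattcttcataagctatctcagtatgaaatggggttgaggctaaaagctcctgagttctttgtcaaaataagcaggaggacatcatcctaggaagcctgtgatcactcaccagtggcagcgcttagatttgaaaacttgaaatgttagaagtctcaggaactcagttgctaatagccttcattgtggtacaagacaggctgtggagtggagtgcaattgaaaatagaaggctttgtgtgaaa
Sema3c (chr5:17080384-17080683, plus strand): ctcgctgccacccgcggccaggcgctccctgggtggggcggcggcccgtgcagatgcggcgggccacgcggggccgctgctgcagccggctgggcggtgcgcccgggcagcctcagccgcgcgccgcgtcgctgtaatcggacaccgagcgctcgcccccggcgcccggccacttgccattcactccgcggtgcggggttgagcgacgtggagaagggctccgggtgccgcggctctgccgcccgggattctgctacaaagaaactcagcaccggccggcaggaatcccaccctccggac
Nrp2 (chr1:62749641-62749940, plus strand): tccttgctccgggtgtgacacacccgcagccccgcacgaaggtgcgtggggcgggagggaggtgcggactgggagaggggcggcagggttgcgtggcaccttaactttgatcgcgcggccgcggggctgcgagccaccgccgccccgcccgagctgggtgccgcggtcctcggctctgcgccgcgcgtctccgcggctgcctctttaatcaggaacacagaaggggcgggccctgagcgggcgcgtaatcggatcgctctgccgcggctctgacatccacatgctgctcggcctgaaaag
Plxna2 (chr1:196445773-196446072, plus strand): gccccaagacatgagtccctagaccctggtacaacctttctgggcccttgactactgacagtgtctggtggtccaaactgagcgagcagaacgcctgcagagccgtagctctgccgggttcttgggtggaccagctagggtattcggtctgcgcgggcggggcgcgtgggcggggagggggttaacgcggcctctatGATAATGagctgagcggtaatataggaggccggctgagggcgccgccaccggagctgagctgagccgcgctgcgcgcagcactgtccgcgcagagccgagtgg

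The Sema3c window had 75.7% G and C and 42 CpG, the Sema3d window 49.7% and 8 CpG, and the Sema3a window 41.3% and 2 CpG, whereas the median was 52.7% and 7 CpG over all 32851 promoter windows and 60.7% and 20 CpG over the 13622 windows of genes tested. Neither TAATG nor GATAA occurred in these 3 windows or in that of Nrp2. In the Plxna2 window both occurred once, overlapping in the run GATAATG, whose first base lies 53 bases before the transcription start. Of the 10 genes, 9 had a window and Sema6d had 2 of them, which makes 10 windows. TAATG was found for 2 genes (Plxna2 and Sema6d) and GATAA for 3 (Plxna2, Sema6d and Plxnd1). Over all windows TAATG occurred in 26.8%, GATAA in 25.4% and both in 10.1%. Over the windows of genes tested the shares were 16.2%, 16.7% and 4.38%. The letters are a description of these windows and show no binding.

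Sema3c, the ligand of outflow septation, was the most abundant semaphorin. CTRL replicates 1 to 4 had 142, 114, 153 and 133 CPM, and Isl1_hypo replicates 1 to 4 had 115, 111, 76.0 and 104 CPM. Each Isl1_hypo embryo lay below CTRL replicates 1, 3 and 4, but CTRL replicate 2 was within the Isl1_hypo range. The mean was 136 ± 16.6 CPM in CTRL and 101 ± 17.5 in Isl1_hypo (SD, n = 4). The log2 fold change was −0.42 (SE 0.14), with an unadjusted p of 0.0126 and an adjusted p of 0.296 by edgeR. It was −0.30 without Isl1_hypo replicate 3. Of 12 cardiomyocyte markers, 8 had a higher and 4 a lower mean in Isl1_hypo, with a median of 0.04, and their summed level was 46656 to 57054 CPM in CTRL and 51483 to 61500 in Isl1_hypo. Actc1, a sarcomeric actin gene, made up a large part of this sum. Of the 12, 1 passed the threshold (0.269% of all genes tested), 4 had an unadjusted p under 0.05 (11.9%) and 2 did not overlap between the groups (8.5%). The gene past the threshold was Nppa, which encodes a natriuretic peptide (log2 fold change 1.13, adjusted p = 0.0303 by edgeR). The myosin heavy chain genes Myh7 (−0.49) and Myh6 (−0.31) and the troponin gene Tnni3 (0.45) made up the rest of the 4. In bulk tissue, fewer cells of a type and less RNA per cell cannot be told apart.

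Sema3a, a repellent of axons and of neural crest cells that signals through Nrp1, had 61.7, 59.3, 53.9 and 46.7 CPM in CTRL replicates 1 to 4. It had 63.7, 69.7, 81.6 and 73.5 CPM in Isl1_hypo replicates 1 to 4. Every Isl1_hypo embryo was above every CTRL embryo, although CTRL replicate 1 and Isl1_hypo replicate 1 were close. The mean was 55.4 ± 6.63 CPM in CTRL and 72.1 ± 7.53 in Isl1_hypo (SD, n = 4). Its log2 fold change was 0.38 (SE 0.12), with an unadjusted p of 0.0105 and an adjusted p of 0.283 by edgeR. Over 21 alternatives in processing it ranged from 0.30 to 0.57, and the unadjusted p was under 0.05 in all 21, while the adjusted p was never under 0.128. The 3 transcripts listed for Sema3a, which share most of their reads, each gave a log2 fold change of 0.39.

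Sema3d, a secreted semaphorin known from endothelial guidance and from the epicardium, had 6.69, 9.96, 9.41 and 27.1 CPM in CTRL replicates 1 to 4. It had 25.0, 42.8, 41.3 and 23.8 CPM in Isl1_hypo replicates 1 to 4. CTRL replicates 1 to 3 were below every Isl1_hypo embryo, and CTRL replicate 4 was above Isl1_hypo replicates 1 and 4. The mean was 13.3 ± 9.33 CPM in CTRL and 33.2 ± 10.2 in Isl1_hypo (SD, n = 4). The log2 fold change was 1.32 (SE 0.39), the largest of the 10, with an unadjusted p of 0.00607 and an adjusted p of 0.230 by edgeR. Without CTRL replicate 4 it was 1.93, with an adjusted p of 0.0231. With the globin level as a covariate it was 0.34, with an unadjusted p of 0.40 by edgeR. The globin share was 0.212% to 1.19% in CTRL and 1.18% to 2.44% in Isl1_hypo. With so little overlap, globin level and genotype cannot be told apart in that fit.

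Markers of the epicardium, the outer cell layer that spreads over the heart at this stage, varied with Sema3d across the libraries. This list was added after the values of Sema3d and Tcf21 had been seen. All 10 markers were tested and had a higher mean in Isl1_hypo, 8 of them with an unadjusted p under 0.05 (5.69% of all genes tested were higher at that level) and none past the threshold, and their median log2 fold change was 1.15. CTRL replicates 1 to 4 had summed levels of 69.6, 275, 255 and 439 CPM, and the Isl1_hypo embryos, in the same order, 531, 593, 855 and 526 CPM. CTRL replicate 4, the CTRL embryo highest in Sema3d, was also the highest in these markers and in globin. Wt1, a transcription factor gene of the epicardium, was at 6.24, 19.5, 23.1 and 28.3 CPM in CTRL and at 37.9, 45.7, 40.0 and 38.5 CPM in Isl1_hypo. Across the 8 libraries Pearson's r of log2 CPM with Sema3d was 0.949 for Tcf21, 0.898 for Upk3b, 0.865 for Tbx18, 0.862 for Wt1 and 0.802 for Aldh1a2, and it was 0.910 for Hbb-y and 0.914 for Hbb-bh1, which encode embryonic globins. For the keratin gene Krt8 it was 0.591. All 4 epithelial markers tested, of 8, also had a higher mean in Isl1_hypo, each with an unadjusted p under 0.05 (5.69% of all genes) and none past the threshold, with a median of 0.86 and summed levels of 94.8 to 172 CPM in CTRL and 179 to 382 CPM in Isl1_hypo. Epcam was at 9.83 CPM in Isl1_hypo replicate 1 and at 0.675, 0.316 and 1.87 CPM in replicates 2 to 4. In CTRL it was at 0.128 to 0.983 CPM. Cdh1, Cldn6 and Esrp1, which were not tested, were at 15.3, 38.5 and 6.03 CPM in Isl1_hypo replicate 1. In the other libraries they were at most at 0.311 CPM. Krt8 was at 92.7, 46.1, 69.7 and 67.4 CPM in Isl1_hypo and at 24.7 to 44.7 CPM in CTRL. The 8 libraries share the genotype split, so the values are a description. The part of epicardial cells, epithelial cells and blood in the Sema3d difference was not tested.

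**Figure D2:**
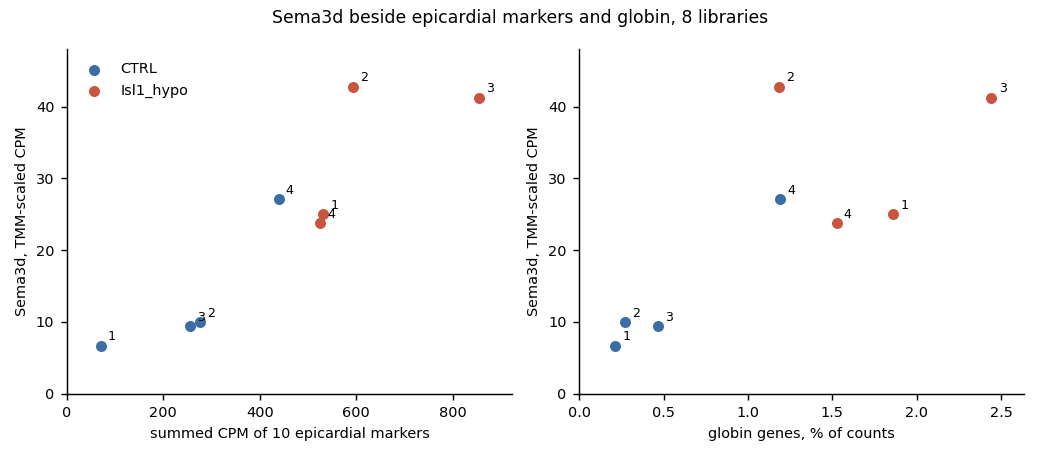
Sema3d in TMM-scaled CPM against the summed CPM of 10 epicardial markers (left) and against the percent of counts in globin genes (right), 1 point for each of the 8 libraries, with the replicate number beside it. CTRL replicates 1 to 3 are low on all 3 measures, and CTRL replicate 4 (27.1 CPM of Sema3d) lies near Isl1_hypo replicates 1 and 4.

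Of the transmembrane ligands, Sema5a, which has thrombospondin repeats and can attract or repel axons, was the lowest of the 10 genes per transcript length. It had 12.2, 16.7, 8.12 and 8.59 CPM in CTRL replicates 1 to 4 and 5.70, 8.43, 9.42 and 6.82 CPM in Isl1_hypo. The groups overlapped, with CTRL replicates 3 and 4 inside the Isl1_hypo range. Isl1_hypo against CTRL gave a log2 fold change of −0.58 (SE 0.26), with an unadjusted p of 0.0472 and an adjusted p of 0.414 by edgeR. With a library left out the unadjusted p stayed under 0.05 in 3 of 8 fits. The value was −0.34 without CTRL replicate 2, −0.38 once each library's trend on transcript length had been removed, and −0.09 with the globin covariate.

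Sema6d, a transmembrane ligand of plexin A1 with a known part in heart tube and trabecular growth, had 73.2, 51.8, 67.1 and 53.0 CPM in CTRL replicates 1 to 4. It had 59.1, 68.0, 40.9 and 65.1 CPM in Isl1_hypo. The groups overlapped over most of their range. The log2 fold change was −0.07 (SE 0.17, adjusted p = 0.902 by edgeR), and its sign changed under 5 of 21 alternatives. The 7 transcripts listed for Sema6d gave values between −0.07 and −0.06.

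Among the plexins, Plxna2, a receptor used by cardiac neural crest cells, had 44.2, 23.3, 28.5 and 31.9 CPM in CTRL replicates 1 to 4. Isl1_hypo replicates 1 to 4 had 24.1, 28.3, 17.1 and 21.8 CPM. CTRL replicate 1 was far above the rest, and CTRL replicate 2 lay within the Isl1_hypo range. A log2 fold change of −0.49 (SE 0.21) was found, with an unadjusted p of 0.039 and an adjusted p of 0.391 by edgeR. It was −0.30 (unadjusted p of 0.151) without CTRL replicate 1, and with a library left out the unadjusted p was under 0.05 in 3 of 8 fits. It was −0.24 (unadjusted p of 0.197) with limma-voom, −0.30 (0.120) with the length trend removed and −0.34 (0.320) with the globin covariate.

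Neural crest cells are among the cells that carry Plxna2. Of 12 neural crest markers only 6 passed the filter, and Sox10 and Foxd3, which define migrating neural crest, were below 1 CPM in every library. Of the 6, 5 had a lower mean in Isl1_hypo, with a median of −0.93 that includes Dlx1 (−4.09), and none passed the threshold. An unadjusted p under 0.05 and no overlap of the groups were found for 3 of the 6, Crabp1, Dlx2 and Dlx1, all lower, against 6.17% and 4.44% of all genes tested. Dlx1 had 27 to 50 counts in CTRL and 0 to 4 in Isl1_hypo. It thus passed the filter only through CTRL, which favoured a lower call. Crabp1, a retinoic acid binding protein gene, was at 48.5, 52.0, 44.0 and 46.4 CPM in CTRL and at 31.0, 16.8, 9.93 and 18.5 in Isl1_hypo (log2 fold change −1.33, adjusted p = 0.0688 by edgeR). The summed level of the list was 114 to 122 CPM in CTRL and 72.8 to 101 CPM in Isl1_hypo, and most of that difference was Crabp1. Ets1, the most abundant of the list, had a mean of 59.4 CPM in CTRL and 62.7 CPM in Isl1_hypo (log2 fold change 0.08). The part of neural crest cells in the Plxna2 and Sema3c differences was not tested.

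Plxnd1, the endothelial receptor of Sema3e and, with neuropilins, of Sema3c, was the most abundant of the 3 plexins per transcript length. CTRL replicates 1 to 4 had 95.6, 93.6, 74.8 and 89.3 CPM. Isl1_hypo replicates 1 to 4 had 66.8, 67.1, 44.1 and 81.5 CPM. Isl1_hypo replicates 1 to 3 were below every CTRL embryo, and Isl1_hypo replicate 4 was above CTRL replicate 3. The log2 fold change was −0.45 (SE 0.17), with an unadjusted p of 0.022 and an adjusted p of 0.322 by edgeR. The unadjusted p was over 0.05 without CTRL replicate 1 or 2 (0.0568 and 0.0535). The value was −0.25 with the globin covariate and −0.27 after the trend on GC content was removed. Of 10 endothelial markers, all tested, 7 had a lower mean in Isl1_hypo, with a median of −0.21 and summed levels of 754 to 943 CPM in CTRL and 643 to 831 in Isl1_hypo. None passed the threshold, and 2 had an unadjusted p under 0.05, against 11.9% of all genes tested. These were the adhesion genes Pecam1 (−0.58) and Cdh5 (−0.54), while Nfatc1 (0.36), Npr3 (0.28) and Emcn (0.23) had a higher mean. The part of endothelial cells in the Plxnd1 difference was not tested.

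Plxna4, a receptor that with Nrp1 carries Sema3a signals, did not separate the groups. It had 64.5, 73.2, 53.0 and 74.7 CPM in CTRL replicates 1 to 4 and 58.7, 69.3, 59.9 and 79.1 CPM in Isl1_hypo. Its log2 fold change was 0.01 (SE 0.14, adjusted p = 0.985 by edgeR), and it ranged from −0.09 to 0.21 over the alternatives.

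Of the neuropilins, Nrp1, which binds Sema3a and VEGF-A, had 280, 334, 317 and 326 CPM in CTRL replicates 1 to 4 and 287, 311, 337 and 327 CPM in Isl1_hypo. The ranges nearly coincided, and the log2 fold change was 0.01 (SE 0.10, adjusted p = 0.989 by edgeR), the smallest standard error of the 10 genes.

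Nrp2, which binds Sema3c, Sema3f and VEGF-C, had 39.3, 46.6, 44.0 and 44.1 CPM in CTRL replicates 1 to 4. It had 35.4, 30.7, 13.6 and 30.9 CPM in Isl1_hypo replicates 1 to 4. Every Isl1_hypo embryo was below every CTRL embryo, and Isl1_hypo replicate 3 was far below the others. The mean was 43.5 ± 3.06 CPM in CTRL and 27.6 ± 9.60 in Isl1_hypo (SD, n = 4), and the latter is 63.5% of the former. Its log2 fold change was −0.66 (SE 0.24), with an unadjusted p of 0.018 and an adjusted p of 0.310 by edgeR. Without Isl1_hypo replicate 3 it was −0.43. With the globin covariate it was −0.45, with an unadjusted p of 0.227. The table lists 6 Nrp2 transcripts of 4678 to 6720 bases that share reads, and each gave −0.65. Counts of the shortest were 52.3% to 69.0% of those of the longest in CTRL and 53.5% to 70.0% in Isl1_hypo, a ratio of counts that share exons and not a proportion of the forms.

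Levels of different genes were compared as RPKM, the deposited values scaled to transcript length and library total. In CTRL the order of mean RPKM was Nrp1 (32.6), Sema3c (16.9), Plxnd1 (7.89), Sema6d (5.79), Sema3a (4.98), Nrp2 (3.97), Plxna4 (3.24), Plxna2 (1.79), Sema3d (1.25) and Sema5a (0.649). Nrp1 was above Sema3c in every CTRL embryo, and likewise Sema3c above Plxnd1, Nrp2 above Plxna4 and Plxna4 above Plxna2. The ranges of the other neighbours in this order overlapped. In Isl1_hypo Nrp1 (32.2) and Sema3c (12.4) again led without overlap, followed by Sema3a (6.35), Plxnd1 (5.70), Sema6d (5.42), Plxna4 (3.20), Sema3d (3.07), Nrp2 (2.49), Plxna2 (1.25) and Sema5a (0.423). From Sema3a to Plxna2 each neighbour overlapped the next, and Sema5a was below Plxna2 in every embryo. Of the 31 genes of the family in the table, Plxnb2, with a mean of 12.9 RPKM in CTRL, was the only one outside the 10 that was above Plxnd1.

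**Figure D3:**
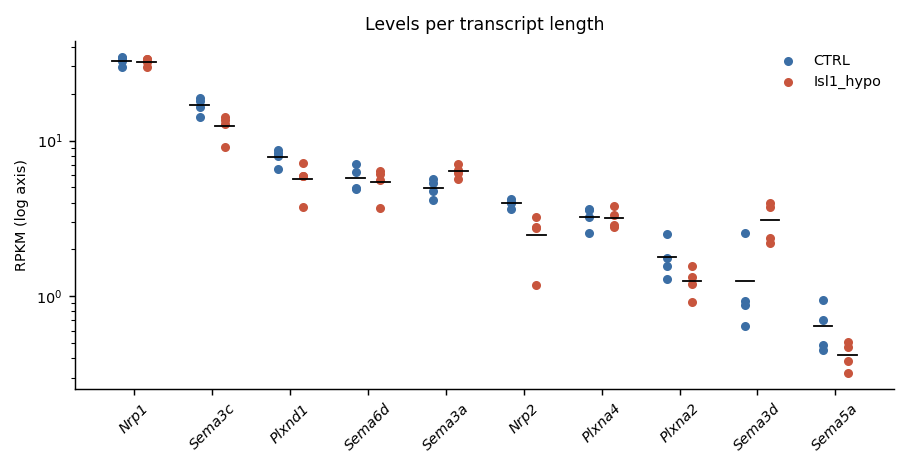
RPKM of the 10 genes on a log axis in the order of their CTRL mean, with 1 point for each embryo (CTRL blue, Isl1_hypo red) and a black line at the mean of each group. Nrp1 and Sema3c lie above the other genes in both groups, and Sema3d spans the widest range on this axis, from 0.643 to 3.98 RPKM.

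Ratios of genes within a library do not depend on how libraries are scaled. For Sema3a over Sema3c, in RPKM, CTRL replicates 1 to 4 gave 0.314, 0.375, 0.254 and 0.253, and the Isl1_hypo embryos gave 0.401, 0.453, 0.776 and 0.510. Sema3d over Sema3c was 0.0357, 0.0663, 0.0466 and 0.154 in CTRL and 0.166, 0.292, 0.412 and 0.173 in Isl1_hypo. The groups overlapped in neither ratio, although CTRL replicate 4 came close to Isl1_hypo replicate 1 in the second. Sema3c made up 69.4% to 76.9% of the summed RPKM of the 3 secreted ligands in CTRL and 45.7% to 63.8% in Isl1_hypo. Nrp1 over Nrp2 was 8.13, 8.15, 8.21 and 8.42 in the CTRL embryos, which is a narrow range, and 9.24, 11.5, 28.2 and 12.1 in the Isl1_hypo embryos. Plxna4 over Plxna2 and Plxnd1 over Nrp1 overlapped between the groups. The ratios were chosen with the differences of the single genes known, and no test was made of them.

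**Figure D4:**
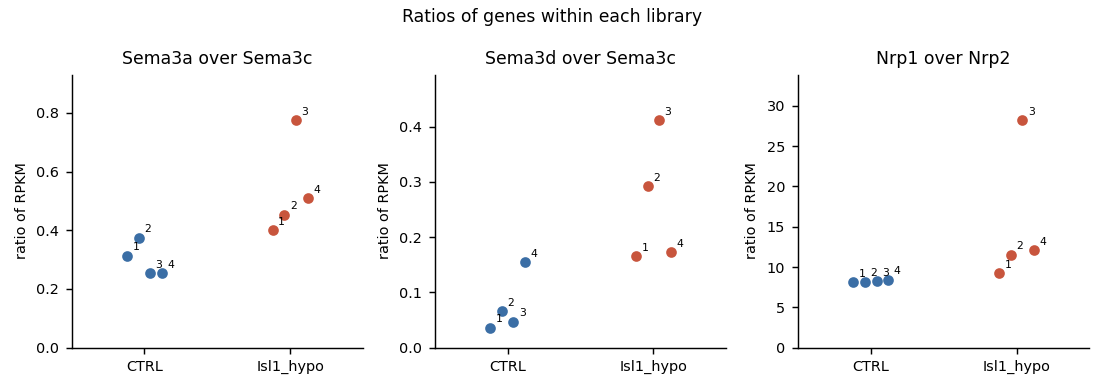
Ratios of RPKM within each library for Sema3a over Sema3c, Sema3d over Sema3c and Nrp1 over Nrp2, by group, with the replicate number beside each point. All Isl1_hypo embryos lie above all CTRL embryos in the 3 panels, and Isl1_hypo replicate 3 is the highest in each (0.776, 0.412 and 28.2).

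Across the whole family of 31 listed genes, 28 were tested, of which 7 had a higher and 21 a lower mean in Isl1_hypo. None passed the threshold, 9 had an unadjusted p under 0.05 (3 higher and 6 lower), and the median log2 fold change was −0.23. Of these 9, 7 are the genes described above, and the other 2 are of 13 other semaphorins and 5 other plexins tested, a share near the 11.9% of all genes tested. They were Sema3g and Sema3e. Sema4f, Sema6b and Plxnb3 had too few counts. Sema3g, made by vascular endothelium, was at 1.41, 1.70, 1.14 and 1.82 CPM in CTRL and at 0.272, 0.749, 0 and 0.138 in Isl1_hypo (log2 fold change −2.39, SE 0.86, adjusted p = 0.308 by edgeR). It was low throughout, with 44 to 85 counts in CTRL and 0 to 20 in Isl1_hypo, so it passed the filter mainly through CTRL. The groups did not overlap. Sema3e, the ligand of Plxnd1, was at 0.384 to 2.99 CPM in CTRL and at 14.0, 2.55, 2.28 and 3.08 in Isl1_hypo (adjusted p = 0.379 by edgeR), so that Isl1_hypo replicate 1 alone was high. That library also held 15.3 CPM of the epithelial gene Cdh1 and 38.5 CPM of Cldn6, which were at most 0.311 CPM in the other 7. Of the 5 other plexins tested, 4 had a lower mean and none an unadjusted p under 0.05. The lowest p were those of Plxna1 (−0.38, unadjusted p of 0.066) and Plxnb1 (−0.24, unadjusted p of 0.088).

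**Figure D5:**
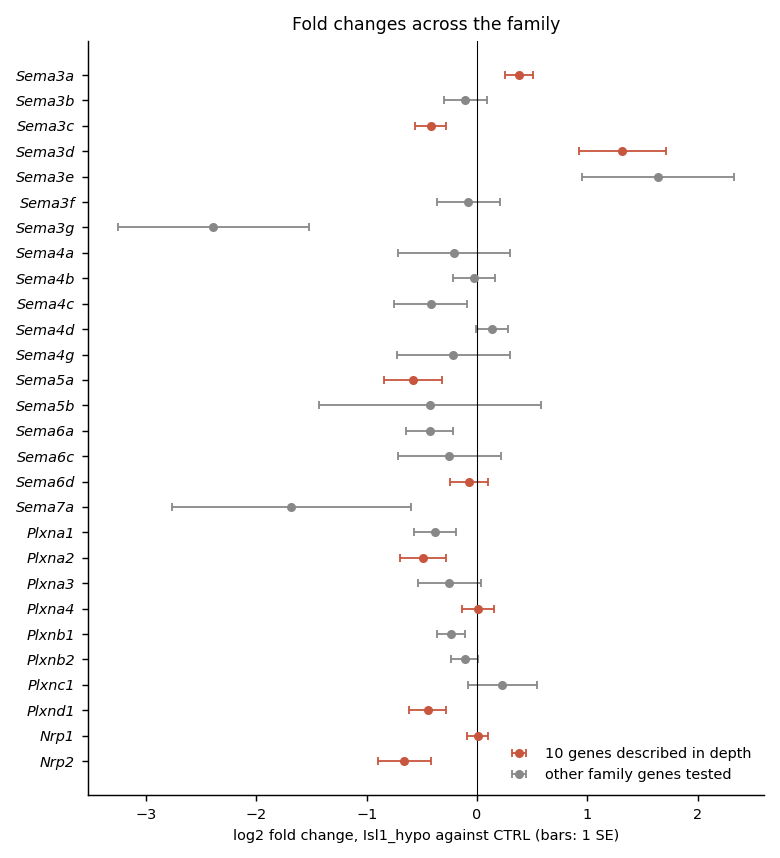
Log2 fold change of Isl1_hypo against CTRL for the 28 genes of the family that were tested, with bars of 1 SE; the 10 genes described in depth are red and the others grey. Of the 28, 21 lie below 0, and the widest bars belong to genes of low counts such as Sema3g, Sema5b and Sema7a.

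Partners outside the family were counted in the same fit. Of 13 tested co-receptors and VEGF ligands and receptors, 12 had a lower mean in Isl1_hypo, none passed the threshold, and the median was −0.20. An unadjusted p under 0.05 was found for 2 of the 13 and no overlap of the groups for 1, which are near the 11.9% and 8.5% of all genes tested. Vegfc, a lymphatic and vascular growth factor that binds Nrp2, was at 18.9, 22.0, 17.9 and 17.2 CPM in CTRL and at 14.0, 13.5, 12.6 and 9.51 CPM in Isl1_hypo. The groups did not overlap (log2 fold change −0.62, SE 0.17, unadjusted p of 0.00336, adjusted p = 0.195 by edgeR). L1cam, an adhesion molecule that pairs with Nrp1 in Sema3a signalling, had a log2 fold change of −0.91 (adjusted p = 0.302 by edgeR), with 7.43 to 24.2 CPM in CTRL and 6.99 to 11.2 in Isl1_hypo.

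Of 32 intracellular effectors, all tested, 11 had a higher and 21 a lower mean, none passed the threshold, 5 had an unadjusted p under 0.05, a share near the 11.9% of all genes tested, and the median was −0.16. Of these 5, the mean was higher for Dpysl2 (log2 fold change 0.58), a collapsin response mediator that binds tubulin, and for Rnd3 (0.45). It was lower for Mical3 (−0.42) and Mical1 (−0.48), oxidoreductases that sever actin downstream of plexins, and for Dpysl4 (−1.05). Rnd3 was the only one of the 32 whose groups did not overlap, where 8.5% of all genes tested did not, at 84.7 to 103 CPM in CTRL and 109 to 180 in Isl1_hypo.

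Of 14 transcription factors known to act upstream of outflow tract genes, all tested, 6 had a higher and 8 a lower mean, and none passed the threshold. Tbx20, at 416 to 580 CPM in CTRL and 283 to 404 in Isl1_hypo, had a log2 fold change of −0.44 (adjusted p = 0.283 by edgeR). Mef2c, at 270 to 282 and 207 to 244 CPM, had −0.23 (adjusted p = 0.352 by edgeR). The groups did not overlap for these 2 of the 14, against 8.5% of all genes tested (4.44% lower). Gata6, which with Gata4 is known to act on Sema3c, was at 61.8 to 73.8 CPM in CTRL and 47.8 to 66.2 CPM in Isl1_hypo (unadjusted p of 0.0871 by edgeR). Gata4 was at 163 to 382 CPM in CTRL and 165 to 282 CPM in Isl1_hypo (log2 fold change −0.20, unadjusted p of 0.443 by edgeR).

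Around the ligand genes on chromosome 5, genes whose lowest coordinate lay within 1 Mb of that of Sema3d, Sema3a, Sema3e or Sema3c were examined. Beside these 4 ligand genes there were 10 such genes, of which 3 were tested. Cd36, the fatty acid receptor gene on the minus strand at 17287508 to 17394777 (mm9), is the nearest of them to Sema3c, with lowest coordinates 207409 bases apart. It was the only one of the 3 past the threshold (0.269% of all genes tested), with a mean of 36.2 CPM in CTRL and 63.2 CPM in Isl1_hypo (log2 fold change 0.80, SE 0.13, adjusted p = 0.0342 by edgeR), and so was higher where the Sema3c mean was lower. Gnai1 (0.13) and Pclo (−1.87, below 1 CPM on average in both groups) had adjusted p of 0.788 and 0.428 by edgeR.

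Genes with the most similar pattern over the 8 libraries were taken for the 3 genes with the lowest unadjusted p, by Pearson's r of log2 CPM among genes with a mean of at least 5 CPM. For Sema3d these were Kcne1l (0.980), Cox7a2l (0.978) and Lims1 (0.977). For Sema3a they were Arcn1 (0.973), Plekha2 (0.967) and Tfpi (0.965). For Sema3c they were Ptprs (0.982), Tut1 (0.981) and Me1 (0.969). None of these 9 genes passed the threshold, and the correlations share the 8 libraries and the genotype split.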

How the data were processed

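OFT/RV tissue of single E10.5 embryos (4 CTRL, 4 Isl1_hypo) was sequenced. Per the paper's methods, the authors aligned reads to mm9 with STAR and counted exon reads per RefSeq transcript with HOMER on both strands, so reads of overlapping and antisense genes add up and transcripts of 1 gene share reads. The deposited counts are not normalized. The deposited RPKM values were made by the authors with edgeR from those counts and were only described. Columns of the authors' own DESeq2 comparison (mean signal, log2 fold change, SE, Wald statistic and p) were not used. Of 31507 transcripts of 20701 symbols, 1 per symbol was kept, by the highest mean count. Genes were filtered with filterByExpr (13769 left), scaled by TMM and tested by the quasi-likelihood method of edgeR 4.0.16 (R 4.3.3), with Benjamini-Hochberg adjustment over all genes tested and a threshold of 0.05. The common dispersion was 0.0699, a biological variation of 26.4%. The SE is the log2 fold change over the root of the F statistic. A prior count of 2 was added for log2 CPM. The fit was tested on simulated counts. Coordinates are from the GENCODE annotation of mm9. Named were Isl1, the 10 genes, genes of the wider lists with an unadjusted p under 0.05 (at most 8 per list, else the 2 with the lowest p), the 3 genes most like each of the 3 with the lowest p, and tested chromosome 5 neighbours. Marker genes were named beside the results they touch, and Wt1, Tcf21, Upk3b, Tbx18, Aldh1a2, Hbb-y, Hbb-bh1, Crabp1, Dlx1, Dlx2, Ets1, Pecam1, Cdh5, Nfatc1, Npr3, Emcn, Nppa, Actc1, Myh7, Myh6, Tnni3, Krt8, Neurog1, Cdh1, Cldn6, Plxnb2 and Gata6 were chosen after their values were seen. Epcam, Esrp1 and Gata4 were also named after their values were seen. The 10 genes and the lists were chosen with earlier results of these data known. Each embryo is 1 sample. Alternatives were other size factors, DESeq2 1.42.0, limma-voom (limma 3.58.1), other filters and transcript choices, the replicate block, globin removal or covariate, removal of length or GC trends, and each library left out. GC content was found for 90.6% of genes tested.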

Additional observations from a re-analysis of the deposited data

Results flagged for a closer look

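Sema3d in the CTRL embryos had 1 library far from the others. CTRL replicate 4 was at 27.1 CPM, and CTRL replicates 1 to 3 were at 6.69 to 9.96 CPM, so that the gap took 0.840 of the range of the group, above Dixon's critical value of 0.829 for 4 samples. Without that library the log2 fold change of Sema3d was 1.93 with an adjusted p of 0.0231 (edgeR), and it was then the 1 gene of the 10 past the threshold. Of 22 groups examined (Isl1 and the 10 genes in both genotypes) this was the only such case, and chance alone gives about 1.1.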

How the results depend on the processing

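The count of genes past the threshold was 37 with the edgeR fit. It was 319 with DESeq2 (148 higher and 171 lower), 134 with limma-voom, 63 with every transcript tested, 0 with the globin covariate (499 at an unadjusted p under 0.05), 100 at a threshold of 0.10 and 4 to 48 with a library left out (8, 5 and 4 without CTRL replicates 1, 2 and 3, 12 and 11 without Isl1_hypo replicates 2 and 4, and 48 without Isl1_hypo replicate 3). None of the 10 genes passed under any of the 21 alternatives, except Sema3d without CTRL replicate 4 (1 of 10). The number lower at an unadjusted p under 0.05 was 5 and became 3 with limma-voom, 3 with the length trend removed, 0 with the globin covariate and 2 to 5 with a library left out (2 without CTRL replicate 1, and 3 without CTRL replicate 2 or Isl1_hypo replicate 1 or 4). The number higher was 2 and became 1 with the globin covariate. Sema3a, Sema3c, Sema3d, Sema5a, Plxna2, Plxnd1 and Nrp2 kept their direction throughout. The other 3 genes changed sign, and each value of the opposite sign was smaller than the SE of its own fit. Sema6d (−0.07) was at 0.0865 with limma-voom, 0.204 with the globin covariate, 0.0426 with the length trend removed and −0.159 to 0.0661 with a library left out. Plxna4 (0.0092) was at −0.00695 with upper quartile factors, −0.0104 with the globin covariate and −0.0878 to 0.0710 with a library left out. Nrp1 (0.0051) was at −0.0102 with upper quartile factors, −0.0520 with limma-voom, −0.00229 with no filter, −0.0781 with the globin covariate, −0.0207 with the GC trend removed and −0.0506 to 0.0470 with a library left out. The largest move of Nrp1 was to 0.129 (SE 0.127), with the length trend removed. The cause of these shifts was not tested. Samples of the same replicate number did not deviate together (correlations of −0.0209 to 0.0219), which cannot exclude a small shared effect. The main fit did not pair the embryos by number. With the replicate block 0 genes passed, with 1582 at an unadjusted p under 0.05, and 4 of the 10 genes were lower and 2 higher at that level. Counts of the 10 genes ranged from 105 to 15259 per library, and the effect of depth on their tests was not examined.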
